A study of Homo sapiens with 8 samples.

Results

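The genes described here are 6 collagens that do not build the bulk of the collagen I fibril: COL12A1, COL13A1, COL14A1, COL15A1, COL16A1 and COL27A1. They were chosen by gene symbol from the 27696 genes of the count table, and all 6 were among the 13798 genes abundant enough to be tested. RNA-Seq was carried out on IMR90 cells, a line of primary fibroblasts from human embryo lung, kept for 3 days in medium that IMR90 ER:RAS fibroblasts had conditioned. The donor cells carried the ER:RAS cassette, a RAS oncogene activated by 4-hydroxy-tamoxifen (4-OHT), and had received 4-OHT for 0, 4, 7 or 10 days when the medium was taken. The 4 groups, called D0, D4, D7 and D10 by the day on which the donor medium was collected, hold 2 libraries each, 1 from each of 2 independent experiments. All groups share the recipient line, the donor line with its cassette and the incubation time, so D0 is medium from uninduced ER:RAS cells and not plain medium, and the model rests on a single recipient line and a single donor line.

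Collagens are trimers of chains with Gly-X-Y repeats. Fibril-forming collagens assemble into the striated fibrils that carry tension, whereas collagens with interrupted triple helices (FACITs) sit on the surface of those fibrils and link them to other matrix molecules. Transmembrane collagens stay anchored in the plasma membrane and take part in adhesion, and multiplexins lie near basement membranes and can release antiangiogenic fragments. COL12A1 and COL14A1 encode the related FACITs of dense and soft connective tissue, and COL16A1 encodes a FACIT-like chain found with fibrils and microfibrils. COL13A1 encodes a transmembrane collagen. COL15A1 encodes a multiplexin and COL27A1 a fibril-forming chain best known from cartilage, so the description as fibril-associated or transmembrane does not cover these last genes strictly.

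The promoters of 3 genes are shown, COL13A1 as the gene called between media with the replicate block, and COL12A1 and COL27A1 as those called between experiments. They are the bases before the RefSeq start (GRCh38.p14), in the direction of the gene, with matches to the motifs searched in capitals. The stretches are chr6:75206054-75206303 on the minus strand for COL12A1, chr10:69801656-69801866 on the plus strand for COL13A1, which ends where the GENCODE exon begins, and chr9:114155287-114155536 on the plus strand for COL27A1.
COL12A1: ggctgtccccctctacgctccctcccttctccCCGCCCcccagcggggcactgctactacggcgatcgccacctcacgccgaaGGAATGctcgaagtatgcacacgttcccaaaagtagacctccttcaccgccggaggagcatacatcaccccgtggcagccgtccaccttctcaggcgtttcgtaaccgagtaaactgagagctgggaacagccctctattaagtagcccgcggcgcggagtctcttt
COL13A1: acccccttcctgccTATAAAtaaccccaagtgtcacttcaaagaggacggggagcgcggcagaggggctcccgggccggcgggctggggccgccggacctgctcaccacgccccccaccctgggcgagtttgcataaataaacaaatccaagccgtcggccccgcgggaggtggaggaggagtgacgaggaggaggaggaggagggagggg
COL27A1: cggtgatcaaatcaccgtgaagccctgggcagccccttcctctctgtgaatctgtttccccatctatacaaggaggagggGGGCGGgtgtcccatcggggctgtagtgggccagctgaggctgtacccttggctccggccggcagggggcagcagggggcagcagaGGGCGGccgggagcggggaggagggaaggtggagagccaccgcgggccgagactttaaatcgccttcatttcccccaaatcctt
The motifs, searched on both strands of the 250 bases before the start, were AP-1 (TGANTCA), the SMAD box (CAGAC), TEAD (CATTCC), the TATA box (TATAAA), the GC box (GGGCGG) and NF-kappaB by its consensus. COL12A1 held a TEAD match at -167 to -162 and a GC box at -218 to -213, both on the reverse strand. COL13A1 held the letters TATAAA at -236 to -231, a match of sequence only, and COL27A1 held GC boxes at -170 to -165 and -84 to -79. COL15A1 held a GC box and an NF-kappaB match at -208 to -199, and COL16A1 held 2 GC boxes and a SMAD box. For COL15A1 and COL16A1 all 250 bases lie within annotated GENCODE exons, so these matches lie inside the annotated genes. No match overlapped another, and AP-1 had none in these 5 promoters. Of 35116 promoters of the same length, 42.6% held a GC box, 38.0% a SMAD box, 11.9% a TEAD match, 10.7% a TATA box, 9.96% an NF-kappaB match and 6.57% an AP-1 match.

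On GRCh38 with the GENCODE 29 annotation, COL12A1 (ENSG00000111799.20) lies at chr6:75084326-75206051 on the minus strand and COL14A1 (ENSG00000187955.11) at chr8:120059780-120372036 on the plus strand. COL16A1 (ENSG00000084636.17) lies at chr1:31652247-31704319 on the minus strand. The plus strand holds COL13A1 (ENSG00000197467.13) at chr10:69801867-69964275, COL15A1 (ENSG00000204291.10) at chr9:98943179-99070792 and COL27A1 (ENSG00000196739.14) at chr9:114155560-114312511. The merged exons ranged from 5888 bases for COL13A1 to 13988 bases for COL27A1. Genes on the opposite strand covered 2.06% of the exon bases of COL15A1 and 1.26% of those of COL16A1, which could share counts if strand was not used in counting. At most 1.32% of a member's 50-base words, for COL15A1, also occurred in another gene, so the members could be told apart from each other by their reads.

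Total counts were 11708193 to 13395912 per library. Levels are given as CPM, the counts scaled to a common library size by edgeR's TMM method. Differences were tested with the quasi-likelihood test of edgeR, with Benjamini-Hochberg adjusted p-values called under 0.05. Since the experiments shifted many genes alike in every group, a second fit held the experiment as a replicate block. All 8 fibroblast markers had a mean of at least 1 CPM, and leukocyte markers summed to at most 1.029 CPM in any library. Summed fibroblast markers were 29130 to 42270 CPM at D0 and 9301 to 32430 CPM at D10, where replicate 2 had the low value, and they include COL1A1, COL1A2 and COL3A1. Over all libraries, epithelial markers summed to 45.91 to 94.83 CPM, endothelial markers to 42.53 to 121.8 CPM and smooth muscle markers to 78.98 to 166.6 CPM. None of the markers in the table was at 0 in all libraries, and their part in the results was not tested. As a check of the media, ACTA2, the myofibroblast actin, fell by 2.76 on the log2 scale at D10 (adjusted p = 0.0399), and CXCL8, which encodes IL-8, had a log2 fold change of 9.70 (adjusted p = 0.0656, 0.000746 with the block). CXCL8 stood at 1.006 and 2.766 CPM at D0 and at 188.7 and 3012 CPM at D10, so the size of its difference rested largely on D10 replicate 2, with 7.35 in experiment 1 and 10.01 in experiment 2 on the log2 scale.

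COL12A1 was by far the most abundant of the 6 genes. Its mean over the 8 libraries was 3699 CPM, rank 14 of all genes tested by CPM, which is not scaled to gene length. At D0, per kilobase of exon, it stood at 230 and 300.7 CPM, COL15A1 at 27.91 and 31.07, COL16A1 at 13.38 and 13.77, COL14A1 at 7.152 and 6.027, COL13A1 at 5.408 and 4.846 and COL27A1 at 1.671 and 2.69, in experiments 1 and 2. The order was the same in both experiments and no neighbouring genes overlapped, but COL13A1 and COL14A1 changed places when the longest transcript was used as the length, with 9.99 and 8.95 CPM per kilobase for COL13A1 against 9.56 and 8.06 for COL14A1. The remaining media changed the order below COL12A1. At D4, D7 and D10 the mean of COL13A1 per kilobase of exon was 9.718, 11.49 and 10.2 CPM, above COL14A1 with 1.763, 2.078 and 3.637 CPM. COL15A1 and COL16A1 were 29.49 ± 2.23 and 13.58 ± 0.28 CPM per kilobase of exon (SD, n = 2) with the D0 medium. With D7 they no longer differed beyond their spread, at 15.96 ± 5.98 and 15.75 ± 5.32. That closeness depended on the length used. With the longest transcript, COL16A1 was above COL15A1 at D7 in both experiments, at 19.37 and 31.52 against 14.22 and 24.44 CPM per kilobase.

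**Figure D1:**
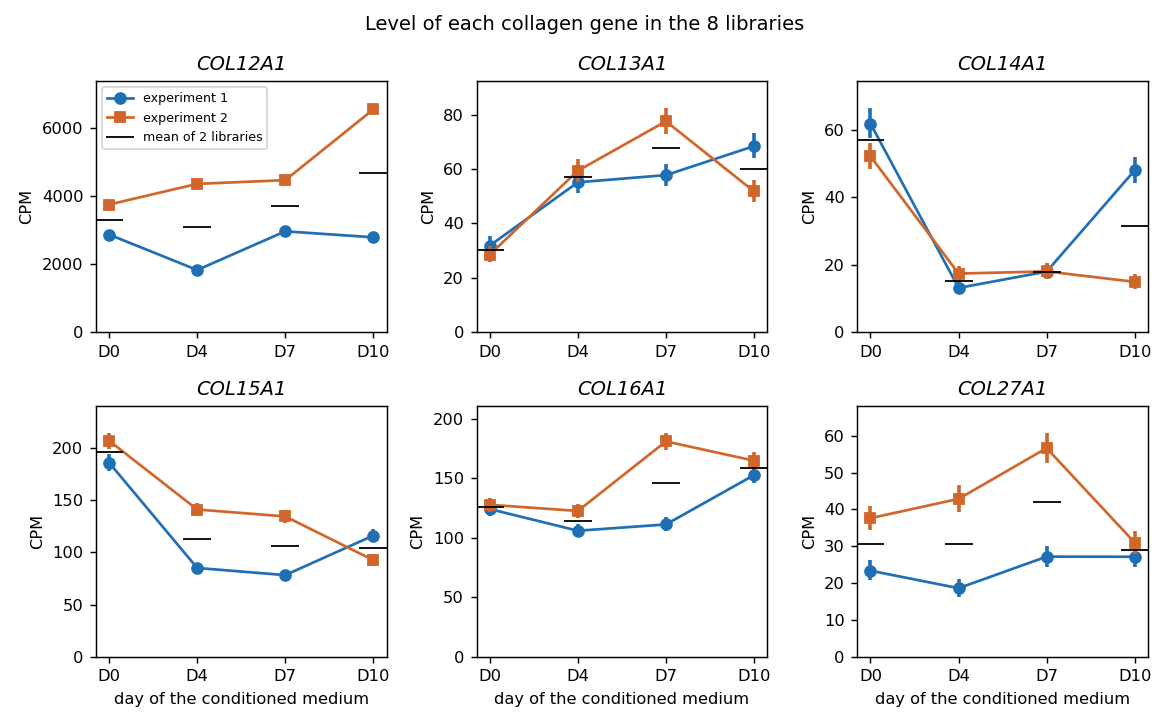
Level of each gene in CPM (vertical axis, from 0) against the day of the conditioned medium (horizontal axis), with experiment 1 as circles, experiment 2 as squares, 95% counting intervals as vertical bars and the mean of the 2 libraries as a dash. COL13A1 lies above both D0 libraries (31.84 and 28.53 CPM) in all 6 other libraries, COL14A1 and COL15A1 lie below theirs, and COL12A1 and COL27A1 differ mainly between experiments.

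To ask how the medium of each day changed these genes, D4, D7 and D10 were compared with D0. COL13A1 was about 2-fold higher with all 3 later media, COL14A1 was 3.73-fold lower at D4 and 3.17-fold lower at D7, COL15A1 was lower on all 3 days by up to 1.88-fold, and the differences of COL12A1, COL16A1 and COL27A1 did not reach an unadjusted p of 0.05 on any day. At the adjusted threshold edgeR called few genes of any kind, and 0 of the 6 at D4, where 0% of all genes tested passed, 0 of 6 at D7, where again 0% of all genes passed, and 0 of 6 at D10, where 0.29% of all genes passed. At an unadjusted p under 0.05 the same edgeR test held 3 of the 6 genes at D4 (2.96% of all genes), 3 at D7 (4.34%) and 2 at D10 (7.94%). These were COL13A1, with higher levels, COL15A1, with lower levels, and at D4 and D7 also COL14A1, with lower levels. With the replicate block, COL13A1 alone was called, as higher at D7 (1.25% of all genes called, 0.507% as higher) and at D10 (4.99%, 2.54% as higher), and none of the 6 at D4 (0.275%). DESeq2 called COL14A1 at D4 (0.287% of all genes), and COL13A1 at D7 (0.785%) and D10 (2.17%). The median over the 6 genes was a log2 fold change of -0.12 (D4), 0.19 (D7) and 0.13 (D10), against 0.01, 0.00 and 0.00 over all genes tested. Groups that did not overlap D0 were seen for 1 higher and 3 lower genes with the D4 medium (9.73% and 12.6% of all genes tested), 1 higher and 2 lower with D7 (13.7% and 15.2%) and 2 of each with D10 (15% and 16%), so non-overlap of a pair of libraries with a pair is common here. The 3 comparisons share their D0 libraries.

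COL13A1, the transmembrane collagen, was higher than at D0 with every later medium in both experiments. In experiments 1 and 2 it stood at 31.84 and 28.53 CPM at D0, 55.1 and 59.35 CPM at D4, 57.74 and 77.54 CPM at D7 and 68.4 and 51.74 CPM at D10. All 6 libraries of D4, D7 and D10 were above both D0 libraries, a pattern that 3.18% of all genes tested had. The log2 fold change was 0.92 ± 0.24 (SE, n = 2 libraries per group) at D4, 1.16 ± 0.24 at D7 and 0.99 ± 0.24 at D10, which is 1.9-fold, 2.24-fold and 1.99-fold. The adjusted p from edgeR was 0.9, 0.307 and 0.155 in that order. With the replicate block it was 0.126, 0.0344 and 0.0242, so that COL13A1 rose at D7 and D10 in the fit that compares libraries within an experiment. A test of any day against D0 gave COL13A1 an adjusted p of 0.366 without the block and 0.0483 with it. That test called 0 of the 6 genes with edgeR (0.087% of all genes tested), 1 with the block (3.33%) and 2 with DESeq2, COL13A1 and COL14A1 (2.09%), and 2 had an unadjusted edgeR p under 0.05 (5.22%). Within experiments the log2 fold change lay between 0.79 (D4, experiment 1) and 1.44 (D7, experiment 2). In bulk RNA a higher share of cells with the transcript and more transcript per cell cannot be told apart. D10 differed from D4 by 0.07 on the log2 scale with a 95% interval from -0.48 to 0.61, and the level at D10 was the higher one in experiment 1 and the lower one in experiment 2.

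COL14A1, the FACIT also known as undulin, had the largest difference of the 6 and the most discordant pair of libraries. It stood at 61.84 and 52.12 CPM at D0, 13.11 and 17.37 CPM at D4, 17.95 and 18 CPM at D7 and 47.98 and 14.91 CPM at D10. D4 and D7 lay far below D0 in both experiments, whereas at D10 experiment 1 was close to D0 and experiment 2 stayed low. These D10 values rest on 606 and 189 counts, with 95% counting intervals of 44.23 to 51.95 CPM and 12.86 to 17.19 CPM, so counting error did not cover the gap. The log2 fold change was -1.90 ± 0.48 (SE) at D4, 3.73-fold lower, -1.66 ± 0.48 at D7, 3.17-fold lower, and -0.86 ± 0.47 at D10, with adjusted p-values of 0.893, 0.632 and 0.827 from edgeR and 0.134, 0.121 and 0.253 with the replicate block. The DESeq2 adjusted p-values were 0.0405, 0.0703 and 0.974. The 6 libraries of D4, D7 and D10 were all below both D0 libraries, as they were for 4.74% of all genes tested. The D10 value turned on single libraries. Without D10 replicate 1 it was -1.92 on the log2 scale, and without D10 replicate 2 it was -0.25. Between D4 and D10 the log2 difference was 1.04 with a 95% interval from -0.05 to 2.14 (adjusted p = 0.898), made up of 1.86 in experiment 1 and -0.22 in experiment 2.

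COL12A1, the FACIT of tendon, fascia and wounded tissue, stood at 2870 and 3753 CPM at D0, 1828 and 4362 CPM at D4, 2966 and 4470 CPM at D7 and 2790 and 6551 CPM at D10. Experiment 2 was higher with all 4 media, and each later medium gave a range that overlapped D0. The D10 difference was 0.50 ± 0.55 on the log2 scale (SE, adjusted p = 0.998, 95% interval from -0.77 to 1.76), with 0.80 in experiment 2 and -0.04 in experiment 1. Without D10 replicate 2 its direction turned, to -0.25. D4 and D7 differed from D0 by -0.10 and 0.17 on the log2 scale. The D4 value was also of opposite sign in the experiments (-0.65 and 0.22).

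COL16A1, which encodes the FACIT-like chain, had the closest replicates at D0. It stood at 124.0 and 127.6 CPM at D0, 105.8 and 122.4 CPM at D4, 111.1 and 180.8 CPM at D7 and 152.5 and 164.6 CPM at D10. D4 lay below D0 and D10 above it without overlap, and D7 overlapped D0. Non-overlap in these directions was found for 12.6% of all genes tested at D4 and 15% at D10. The D10 log2 fold change was 0.33 with a 95% interval from -0.28 to 0.95 (adjusted p = 0.998 from edgeR, 0.385 with the replicate block). D10 against D4 gave 0.47 (adjusted p = 0.968), with 0.53 and 0.43 within the experiments. Between D10 and D4, 0 of the 6 genes were called by edgeR (0.00725% of all genes tested), with the block (2.55%) or by DESeq2 (0.938%), and 0 had an unadjusted p under 0.05 (5.7%).

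COL15A1, the multiplexin, was lower with every medium later than D0. It stood at 185.7 and 206.7 CPM at D0, 84.97 and 140.9 CPM at D4, 78.14 and 134.3 CPM at D7 and 116.0 and 92.44 CPM at D10. The 6 later libraries were all below the D0 libraries, as for COL14A1. The log2 fold change was -0.80 ± 0.34 (SE) at D4, -0.89 ± 0.34 at D7 and -0.91 ± 0.34 at D10, the last being 1.88-fold lower with a 95% interval from -1.70 to -0.12. The adjusted p was 1, 1 and 0.489 from edgeR, 0.347, 0.188 and 0.0994 with the replicate block, and 1, 0.73 and 0.361 from DESeq2, so none of these methods called it on any of the 3 days. At D4 and D7 the difference from D0 was larger in experiment 1 (-1.13 and -1.25 on the log2 scale) than in experiment 2 (-0.55 and -0.62), and at D10 it was smaller in experiment 1 (-0.68 against -1.16).

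**Figure D2:**
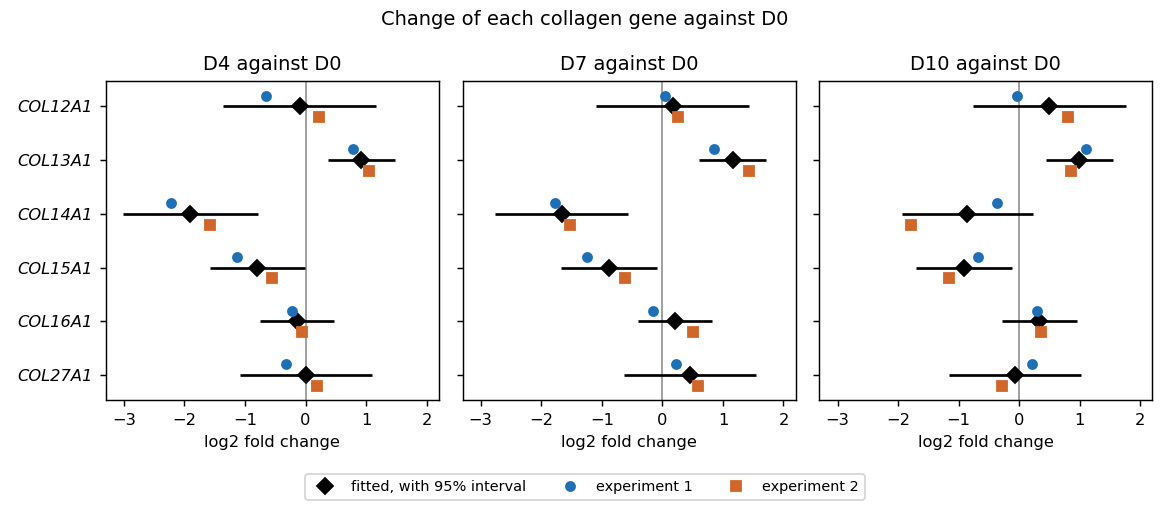
Log2 fold change against D0 (horizontal axis) of each gene (rows) at D4, D7 and D10, with the fitted value and its 95% interval as a black diamond and bar and the change within each experiment as a circle or square. The intervals of COL13A1 lie above 0 on all 3 days and those of COL15A1 below it, whereas COL14A1 reaches 0 at D10, where its experiments gave -0.37 and -1.79.

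COL27A1, the fibril-forming chain, stood at 23.38 and 37.63 CPM at D0, 18.62 and 42.87 CPM at D4, 27.19 and 56.65 CPM at D7 and 27.16 and 31.0 CPM at D10. It was higher in experiment 2 throughout, and every later group overlapped D0. The log2 fold change was 0.01 (D4), 0.46 (D7) and -0.07 (D10), each with SE 0.47, and the 95% interval at D10 ran from -1.16 to 1.02. With the replicate block the D10 value was -0.01 with an SE of 0.23 (adjusted p = 0.989). The sign at D4 and D10 was opposite in the experiments.

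To show how far the experiments differed, experiment 2 was compared with experiment 1 over all media. Of the 6 genes, 2 were called, both higher in experiment 2, where 34.8% of all genes tested were called and 18.6% were called higher. DESeq2 also called 2 (31.4% of all genes), and 2 had an unadjusted p under 0.05 (45.9%). COL27A1 was higher by 0.79 ± 0.16 on the log2 scale (SE, n = 4 libraries per experiment, edgeR adjusted p = 0.00864) and COL12A1 by 0.87 ± 0.20 (adjusted p = 0.0124). The call of COL12A1 was lost without either of the D4 libraries. Both genes and COL16A1 were higher in experiment 2 with all 4 media, as were 25.7% of all genes tested. COL13A1 differed by -0.004 on average, with an interval from -0.32 to 0.31. For COL12A1 the difference between experiments was 0.39 with the D0 medium, 1.25 with D4, 0.59 with D7 and 1.23 with D10, where 9.12% of all genes tested had a larger difference. COL14A1 differed by 0.00 at D7 and by -1.68 at D10, where 4.2% of all genes had a larger one in either direction. The spread of these differences over all genes was widest at D10 (SD 0.764 on the log2 scale, against 0.568 to 0.697 with the other media).

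**Figure D3:**
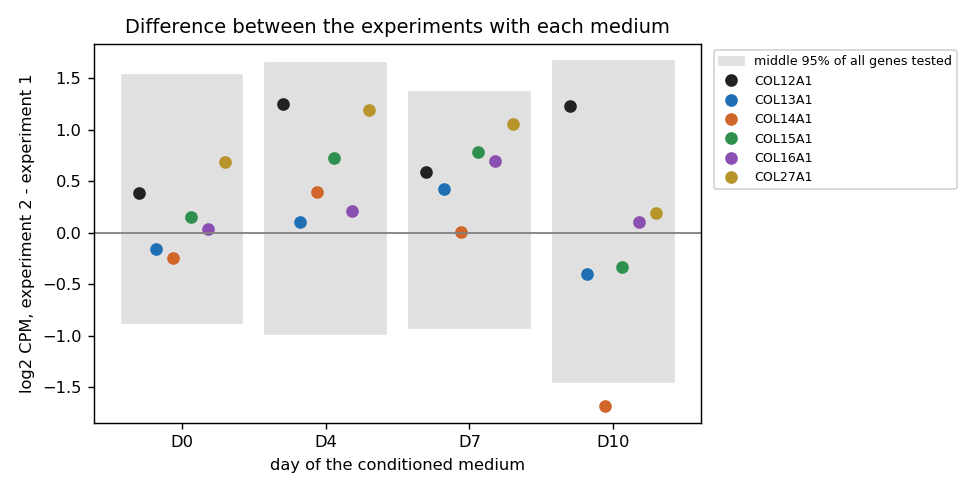
Difference in log2 CPM between experiment 2 and experiment 1 (vertical axis) with each medium (horizontal axis), with a coloured point per gene and a grey band for the middle 95% of all genes tested. COL14A1 at D10 (-1.68) is the only point outside the band, and the points of COL12A1 and COL27A1 are above 0 with all 4 media.

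Ratios within a library do not depend on scaling between libraries. The ratio of COL12A1 to COL14A1 per length, the balance of the related FACITs, was 32.15 and 49.89 with the D0 medium, 96.59 and 174 with D4, 114.5 and 172.1 with D7 and 40.29 and 304.4 with D10. It was higher at D4 and D7 than at D0 in both experiments, which follows largely from the lower COL14A1 given above and is no separate result. At D10 experiment 1 lay between the D0 values while experiment 2 gave the highest value of the series. The ratio of COL13A1 to COL15A1 per length was 0.1938 and 0.156 at D0 and between 0.4759 and 0.835 in all 6 later libraries. In those libraries COL13A1 lay above and COL15A1 below both D0 libraries, so this ratio could not overlap and adds no separate result.

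COL12A1 was then set against COL1A1, which encodes the main chain of the fibrils that collagen XII decorates. The ratio per length was 0.1557 and 0.3396 with the D0 medium, 0.159 and 0.3724 with D4, 0.2671 and 0.3984 with D7 and 0.2327 and 3.98 with D10. The last library stood apart. There COL1A1 was at 1295 CPM, against 8694 to 14500 CPM in the other 7 libraries, and COL12A1 at its highest, 6551 CPM. The 6 genes together made up 5.52% and 9.18% of all collagen counts with the D0 medium, 5.06% and 10% with D4, 7.14% and 9.96% with D7 and 5.7% and 24% with D10, and COL12A1 alone accounted for 22.8% in D10 replicate 2. In that library the 40 collagen genes in the table took 3.11% of all counts, the lowest share of the series, where the other libraries ranged from 4.05% to 5.66%.

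**Figure D4:**
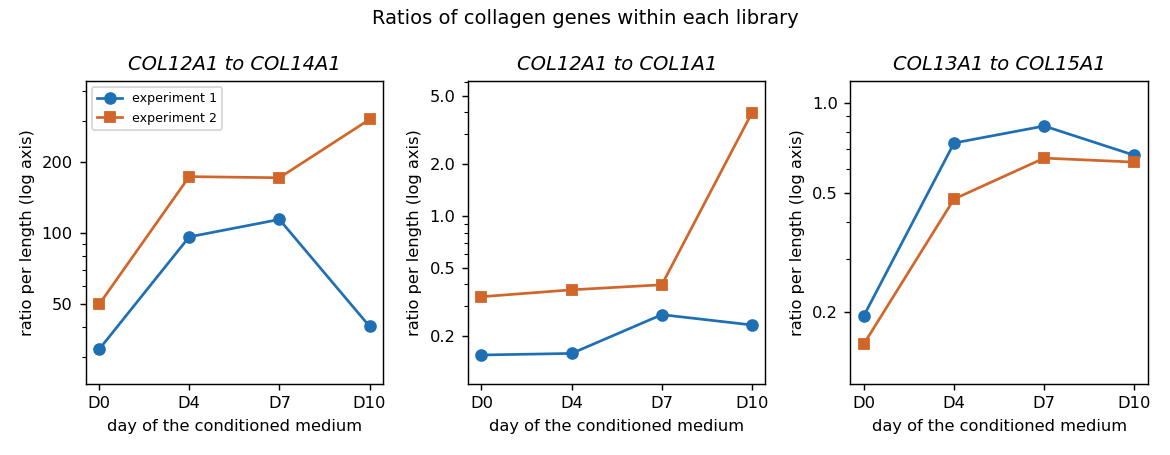
Ratio of 2 collagen genes per exon length within each library (vertical axes, logarithmic) against the day of the medium, for COL12A1 to COL14A1, COL12A1 to COL1A1 and COL13A1 to COL15A1, with experiments as circles and squares. COL13A1 to COL15A1 is higher than at D0 in all 6 later libraries, which follows from the levels of these genes. The other ratios part at D10, where experiment 2 reaches 304.4 and 3.98.

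The other genes of collagen assembly were compared at D10. There 0.29% of all genes tested were called by edgeR, 4.99% with the replicate block and 2.17% by DESeq2. An unadjusted edgeR p under 0.05 was held by 7.94%. Of 11 other fibril-associated, transmembrane or multiplexin collagens 8 were in the table and 2 were abundant enough to test, COL18A1 with 0.05 and COL9A2 with -0.62 on the log2 scale, and 0 were called by edgeR, with the block or by DESeq2, or had an unadjusted p under 0.05. The fibril-forming collagens were listed without COL27A1, which is counted among the 6. They gave 0 calls among 9 tested with edgeR, 1 with the replicate block and 1 with DESeq2, both COL11A1. Of these 9, 1 had an unadjusted p under 0.05. Their median log2 fold change was -0.77, against 0.00 over all genes and 0.13 for the 6 genes, and 8 of the 9 were below 0. Within experiments that median was -0.46 and -1.37, so it was lower in the experiment whose D10 library stood apart. COL11A1 was lowest with -3.25 (adjusted p = 0.309 from edgeR, 0.015 with the replicate block, 0.00912 from DESeq2) and COL24A1 highest with 0.72. The level of COL11A1 was low and uneven, at 3.436 and 17.69 CPM at D0 and 1.029 and 1.183 CPM at D10. Its log2 change was -1.60 in experiment 1 and -3.74 in experiment 2.

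Among proteins of the fibril surface edgeR called 0 of 13 tested, the replicate block 1 (DCN) and DESeq2 1 (TNC), and 2 had an unadjusted p under 0.05. For this and the following lists, the shares over all genes at D10 were 0.29% (edgeR), 4.99% (replicate block), 2.17% (DESeq2) and 7.94% (unadjusted p). Their median was 0.03. They ranged from DCN, the decorin gene, at -1.55 (adjusted p = 0.484, 0.0362 with the replicate block) to TNC, the tenascin C gene, at 1.43 (adjusted p = 0.252, 0.0169 from DESeq2). Among collagen receptors edgeR called 0 of 8, the replicate block 1 (ITGA2) and DESeq2 2 (ITGA2 and ITGA10), and 2 had an unadjusted p under 0.05. ITGA10, an integrin subunit, was highest with 2.06 (adjusted p = 0.228, 0.00947 from DESeq2) and DDR1, a collagen-binding kinase, lowest with -0.21. ITGA2, another integrin subunit, named here after its value was seen, stood at 1.98 (adjusted p = 0.0749, 0.00573 with the block, 5.56e-06 from DESeq2). The 17 genes of chain modification and folding had 1 call with edgeR and 1 with DESeq2, P4HA3, a prolyl hydroxylase subunit. With the replicate block 1 was called as higher and 1 as lower, and 1 in each direction had an unadjusted edgeR p under 0.05. P4HA3 stood at 3.603 and 4.149 CPM at D0 and 19.08 and 21.93 CPM at D10. It rose by 2.40 ± 0.32 on the log2 scale (SE, edgeR adjusted p = 0.0399). SERPINH1, the collagen chaperone HSP47, was lowest of these with -0.76 (adjusted p = 0.807, 0.0358 with the block). Of the propeptide processing genes 0 of 8 tested were called by edgeR, with the block or by DESeq2, and 1, PCOLCE, had an unadjusted p under 0.05. They ranged from PCOLCE at -0.97 to ADAMTS3 at 0.89.

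**Figure D5:**
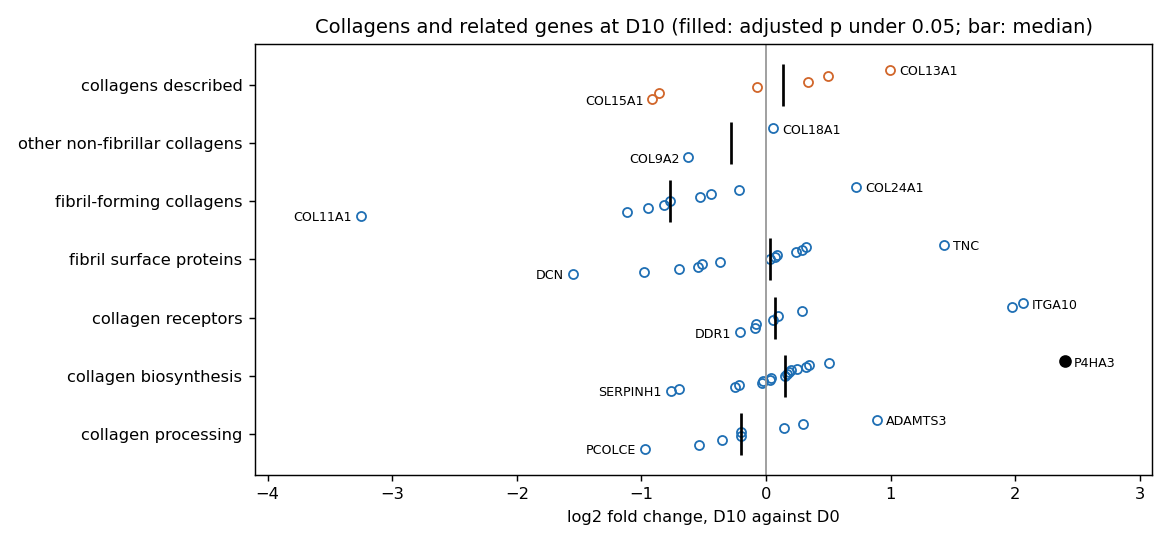
Log2 fold change at D10 against D0 (horizontal axis) of each tested gene in the lists of collagen-related genes (rows), with the median of a list as a bar, genes past an adjusted p of 0.05 filled and the extreme genes named. The fibril-forming collagens other than COL27A1 have a median of -0.77 and the 6 genes described, COL27A1 among them, one of 0.13. P4HA3 is the only filled point.

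Last, each gene was set against all others by the correlation of log2 CPM over the 8 libraries after the mean of each experiment was subtracted. The points share libraries and the D0 samples, and the partners are the highest of 13798 genes tested, so the values are a description. COL13A1 was most like ACVRL1 (r = 0.994), a BMP9 receptor, CD9 (0.988), a tetraspanin, and SPRY4 (0.986), an inhibitor of receptor kinase signalling. COL15A1 was most like MAF (0.993), a transcription factor, AXIN2 (0.972) and TMEM17 (0.966), and COL14A1 most like TAF5 (0.966), AMOTL2 (0.961) and RNF150 (0.961). The leading genes for COL12A1 were ZNF543, NR3C1 and RNF214 (0.962 to 0.966), for COL16A1 MRC2, which encodes a collagen uptake receptor, GOLGA2P5 and PRRT1 (0.972 to 0.988), and for COL27A1 RFX5, TSC1 and PCNT (0.986 to 0.996). Some of these partners had low mean levels, among them GOLGA2P5 (0.5194 CPM), MAF (1.687), AXIN2 (1.971), ZNF543 (2.551) and TMEM17 (3.041). Among the 6 genes themselves the closest pair was COL14A1 and COL15A1 (r = 0.894), and COL13A1 ran against both, with -0.628 and -0.657.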

How the data were processed

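RNA from 8 libraries was described as poly(A)-selected and stranded. The authors deposited raw counts per gene, which were used, and beside them RPM values, scaled by the authors to the reads counted per library, which were not. STAR 2.5, DESeq2 and GRCh38 are named in the submitters' processing notes, and the strand setting is not given in the sources used here. A column headed DO was taken as D0 replicate 1. Of the gene identifiers 99.6% are in GENCODE 29.

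Genes were filtered with filterByExpr and fitted by group in one edgeR 4.0.16 model (R 4.3.3) of 8 libraries, since 2 per group say little of the spread. Log2 CPM used a prior count of 2. The methods describe 2 independent experiments, and deviations of same-numbered libraries correlated with r between 0.418 and 0.722 across genes in all 6 pairs of groups, so the replicate numbers pair the libraries, and a fit with the replicate block was run beside the main one. The common dispersion was 0.0792 without the block and 0.0242 with it. The comparison between experiments includes the group as a term. Alternatives were DESeq2 1.42.0, its size factors, a minimum of 10 counts in each library, no filter, only the groups compared, a minimum fold change of 2, a stricter adjusted p of 0.01, another gene length and leaving out each library. Methods were tested on simulated counts for D10 against D0, with 100 genes changed at each fold. Of 2-fold changes edgeR recovered 0%, DESeq2 13% and the replicate block 73%. For 4-fold changes these were 41%, 94% and 100%. Unchanged genes were 0 of 41 calls with edgeR, 1 of 108 with DESeq2 and 15 of 188 with the block. A lack of an edgeR call therefore says little about a change near 2-fold. Counting intervals are exact Poisson limits at 95% and cover counting error only.

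The 6 genes and the lists were chosen with earlier results of these data known. The rule named the 6 genes, the highest and lowest tested gene of each list at D10, the 3 genes most like each of the 6, and ACTA2 and CXCL8. Extremes of the marker lists are given as summed levels only. Promoters were matched by symbol in a RefSeq table for 5 of the 6 genes. Those of COL15A1 and COL16A1 lie wholly within annotated exons and were not printed.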

Additional observations from a re-analysis of the deposited data

How the results depend on the processing

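Of the log2 fold changes of the 6 genes under the alternatives, 368 kept their direction and their side of the threshold, 11 passed it, 2 no longer did and 27 changed sign. The sign changes concerned values that passed no threshold, and the cause was not tested.

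The count of genes called differed between methods. At D4 it was 0 as reported, 44 with DESeq2, 21 with no filter and 38 with the replicate block. At D7 it was 0, 112, 93 and 172. At D10 it was 40, 379, 371 and 688, and 20 with at least 10 counts in every library, 0 with the compared groups only and 2 at an adjusted p under 0.01. Between D10 and D4 it was 1, 149, 147 and 352, and 6 with either DESeq2's size factors or the compared groups only. For any day it was 12, 332, 318 and 460, and 1 at an adjusted p under 0.01. Between experiments it was 4805, with 2035 at 0.01 and 897 at a fold change of at least 2. Leaving out each library gave 0 to 155 genes at D10, 0 to 83 between D10 and D4, 1 to 74 for any day and 2121 to 5602 between experiments. The highest counts at D10, between D10 and D4 and for any day came without D10 replicate 1, and at D10 0 genes were called without either D0 library, 14 or 15 without a D4 or D7 library and 11 without D10 replicate 2.

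Of the 6 genes, DESeq2 called 1 at D4 (0.287% of all genes), D7 (0.785%) and D10 (2.17%). For any day it called 2, COL13A1 and COL14A1 (2.09%). With no filter 1 was called at D4, D7 and any day (COL14A1 at D4 and D7), and 3 between experiments, where COL14A1 (adjusted p = 0.0314) joined COL12A1 and COL27A1. The counts over all genes with no filter, out of 27696 tested, are given above for the days. Between experiments the main fit called 34.8% of all genes. The share with no filter is not given for that comparison, so its 3 calls cannot be set against a background. The replicate block called COL13A1 at D7 (1.25% of all genes), D10 (4.99%) and any day (3.33%). Without D10 replicate 1, which left D10 with 1 library, the D10 log2 fold change of COL14A1 was -1.92. Leaving out each library gave 1 to 3 called between experiments. In that comparison 1 remained at an adjusted p under 0.01 and 0 at a fold change of at least 2. The replicate block changed no other call of the 6 genes.

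The replicate block turned COL27A1 at D4 to -0.046 and between D10 and D4 to 0.036, and at least 10 counts in every library turned COL13A1 between experiments to 0.012. Leaving out each library in turn gave these ranges on the log2 scale. At D4 COL12A1 ran from -0.85 to 0.39 and COL27A1 from -0.71 to 0.48, where the lowest values came without D4 replicate 2. At D7 COL12A1 ran from -0.16 to 0.43, COL16A1 from -0.18 to 0.53 and COL27A1 from -0.16 to 0.89, where the lowest values came without D7 replicate 2. At D10 COL12A1 ran from -0.25 to 1.00 and COL27A1 from -0.37 to 0.31. Between D10 and D4 COL12A1 ran from -0.15 to 1.35, COL13A1 from -0.14 to 0.26, COL14A1 from -0.024 to 1.65, COL15A1 from -0.43 to 0.29 and COL27A1 from -0.55 to 0.64. Between experiments COL13A1 ran from -0.16 to 0.13 and COL14A1 from -0.64 to 0.028, and COL15A1 was called without either D10 library (0.55).

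With 2 libraries per group, a group left with 1 library was assumed to vary like the others. The lowest count of the 6 genes in any library was 169.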
